A study of Mus musculus with 12 samples.

Results

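Acta2, Actg2, Myl9, Tagln, Tagln2, Cnn1, Cnn2 and Cnn3 encode the smooth muscle actins, a myosin regulatory light chain, the transgelins and the calponins, and they are described here in C2C12 cells, a mouse myoblast line that fuses into multinucleated fibres when serum is lowered. These 8 genes were taken by name from the 25774 genes to which the deposited transcripts could be matched, and all 8 were among the 13076 genes with enough signal to test. The list was selected on measured values of these libraries, since the siKctd10 over siControl differences of Acta2, Tagln, Myl9 and Cnn2 were known, so siKctd10 values of all 8 are a description without a test. The cells had received an siRNA against Kctd10 (siKctd10) or a non-targeting siRNA (siControl), and were harvested either differentiating (D2) or as undifferentiated myoblasts (D0). The 4 groups were D2 siKctd10, D2 siControl, D0 siKctd10 and D0 siControl, with 3 libraries each and 12 in all. Per the labels, D0 cells stayed below confluence in DMEM with 10% fetal bovine serum, and D2 cells were moved to DMEM with 2% horse serum 24 h after siRNA. The protocols give 48 h of siRNA for every sample, which leaves less than 2 days in the low-serum medium, and how long D2 cells carried the siRNA is therefore unclear. Day, medium and cell density change together between D0 and D2 and cannot be told apart. All groups are 1 cell line, 1 siRNA sequence was used against Kctd10 according to the series' design text, and the labels do not say whether the libraries of a group are separate cultures. Each p-value therefore reflects the spread among libraries alone, which may be technical.

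In smooth muscle, actin and myosin filaments slide past each other once the regulatory light chain of myosin is phosphorylated, and calponins and transgelins bind the actin filaments. Many of these genes carry CArG boxes, the binding sites of serum response factor (SRF), whose cofactors of the myocardin family include the MRTF proteins, which move to the nucleus when monomeric actin is used up. Acta2 and Tagln are also made by fibroblasts, myofibroblasts and cultured skeletal myoblasts, so they do not by themselves mark a smooth muscle cell. Kctd10 is a substrate adaptor of the cullin 3 ubiquitin ligase.

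Kctd10 itself averaged 32.0 ± 4.58 TPM in D2 siKctd10 cells and 283 ± 6.77 TPM in D2 siControl cells, and 23.1 ± 2.69 TPM in D0 siKctd10 cells and 266 ± 7.32 TPM in D0 siControl cells (SD, n = 3 each; TPM is transcripts per 1000000 transcripts, a level that takes transcript length into account). The log2 differences were -3.12 at D2 (limma, adjusted p = 2e-06) and -3.48 at D0 (limma, adjusted p = 6.8e-07), and the labels hold in every library. Each library held 12.5 to 18.1 M read pairs, as estimated from the coverage. The 8 skeletal myoblast markers summed to 2663 to 3173 TPM per library in D2 siKctd10 cells, 3778 to 3924 TPM in D2 siControl cells, 704 to 847 TPM in D0 siKctd10 cells and 698 to 721 TPM in D0 siControl cells. Of the 8 smooth muscle markers that are not among the genes described, 3 averaged at least 1 TPM in each group. All 8 summed to 53.2 to 79.4 TPM, 57.6 to 105 TPM, 38.8 to 41.1 TPM and 15.8 to 38.1 TPM in the same order of groups. Most of each sum was Smtn, which averaged 42.4, 59.8, 29.3 and 20.4 TPM in that order. Myh11, the smooth muscle myosin heavy chain, was at most 0.037 TPM in any library, and Ppp1r14a was listed at 0 in all 12. Of the 5 endothelial markers and the 5 macrophage and leukocyte markers, neither list summed to more than 2.55 TPM in any library. The 7 fibroblast markers summed to 1896 to 2209 TPM, 2014 to 2351 TPM, 722 to 939 TPM and 922 to 981 TPM in the 4 groups in that order, and the 6 pericyte markers to 273 to 324 TPM, 299 to 438 TPM, 114 to 271 TPM and 91.9 to 203 TPM. Both of these sums moved with the day, and their part in the results below was not tested. The 5 adipocyte markers, of which only Pparg was above 0, summed to 4.53 to 5.91 TPM, 4.40 to 5.71 TPM, 15.6 to 19.5 TPM and 14.6 to 19.8 TPM.

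The promoters of 3 genes are shown because those 3 rose under siKctd10 and a CArG box, or a near match to one, could be read in them. Each window is the 250 bases before the start of the RefSeq gene on GRCm38.p6 (mm10), read 5′ to 3′ on the gene's strand. Capitals mark a CArG box (CC, then 6 letters that are each A or T, then GG), a near CArG box (5 of those 6 letters A or T) or, in Acta2, the sequence CATTCC read on the other strand, which is the core of the site of TEAD factors. The windows lie at chr19:34255374-34255623 on the minus strand for Acta2, chr2:156775214-156775463 on the plus strand for Myl9 and chr10:79988350-79988599 on the plus strand for Cnn2.
Acta2 promoter: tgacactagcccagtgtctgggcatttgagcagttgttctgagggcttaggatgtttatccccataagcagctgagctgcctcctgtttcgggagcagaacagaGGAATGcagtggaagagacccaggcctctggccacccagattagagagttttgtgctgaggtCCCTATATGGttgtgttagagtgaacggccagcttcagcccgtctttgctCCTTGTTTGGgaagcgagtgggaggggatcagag
Myl9 promoter: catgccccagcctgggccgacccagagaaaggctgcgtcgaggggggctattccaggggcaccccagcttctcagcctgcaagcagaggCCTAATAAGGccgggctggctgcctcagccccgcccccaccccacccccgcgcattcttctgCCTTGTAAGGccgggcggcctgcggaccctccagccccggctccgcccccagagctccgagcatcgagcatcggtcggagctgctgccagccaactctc
Cnn2 promoter: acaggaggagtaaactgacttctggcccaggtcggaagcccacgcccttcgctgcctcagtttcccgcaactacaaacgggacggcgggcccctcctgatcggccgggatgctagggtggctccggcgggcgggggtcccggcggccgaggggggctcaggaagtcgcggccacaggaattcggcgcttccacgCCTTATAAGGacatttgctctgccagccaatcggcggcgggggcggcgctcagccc
Cnn2 has a full CArG box that begins 56 bases before the start, and Myl9 has one at 161 bases with a near CArG box at 99 bases. Acta2 has near CArG boxes only, at 84 and 34 bases. Windows were at hand for 6 of the 8 genes, which leaves out Tagln and Actg2. Those of Cnn1 and Cnn3 hold none of the motifs, and that of Tagln2 holds CATTCC at 118 and 80 bases and no CArG box of either kind. Both strands were searched in 32851 promoter windows of 27025 genes, of which 1.47% hold a full CArG box, 7.24% a near CArG box and 12.6% CATTCC. A match of letters does not show that a factor binds there.

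Calls under siKctd10 were then counted among all tested genes with each motif in this window. Of 149 tested genes with a full CArG box, 2.68% were called higher and 2.01% lower under siKctd10 at D0, against 1.43% and 0.952% of the 9875 tested genes with any window. At D2 the shares were 3.36% higher and 2.68% lower, against 2.73% and 1.81%. Cnn2 and Myl9 are themselves 2 of the 4 genes called higher at D0 (with Acta1 and Ston1) and 2 of the 5 at D2 (with Rnd3, Ppbp and Ston1). Without them 1.36% were higher and 2.04% lower at D0, and 2.04% and 2.72% at D2. Of 766 genes with a near CArG box and no full one, 1.57% were called higher and 0.653% lower at D0, and 3.26% and 1.83% at D2. Myl9, which has both, is not among these. Acta2 is, and it is among the 12 genes called higher at D0 and the 25 at D2. Of 1243 genes with CATTCC, 2.41% were called higher and 0.885% lower at D0, and 3.62% and 1.77% at D2. Acta2 is also among the 30 of these called higher at D0 and the 45 at D2. It was chosen knowing its siKctd10 rise, and the shares without it were not counted. These shares are counts with no test.

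Acta2 encodes smooth muscle α-actin, the actin isoform of vascular smooth muscle and of myofibroblasts, and its only transcript in the files lies at chr19:34240336-34255373 on the minus strand. It stood at 2285, 2947 and 2222 TPM in the 3 D2 siKctd10 libraries, against 1489, 1205 and 1244 TPM in the D2 siControl libraries. At D0 it stood at 1596, 1681 and 1409 TPM in siKctd10 libraries, against 657, 586 and 555 TPM in siControl libraries. Every siKctd10 library was above every siControl library of its day, as was so for 18.5% of all tested genes at D2 and 14.4% at D0. The mean was 1.89-fold higher with siKctd10 at D2 (log2 difference 0.91, 95% interval 0.63 to 1.20) and 2.61-fold higher at D0 (1.38, 1.09 to 1.67). In bulk RNA a larger share of cells that make a transcript and more of it per cell cannot be told apart. The D0 siKctd10 libraries overlapped the range of the D2 siControl libraries, and no test was made between these 2 groups.

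Myl9 encodes the regulatory light chain of smooth muscle and nonmuscle myosin II, the chain whose phosphorylation turns on contraction, and lies at chr2:156775464-156781657. It stood at 163, 151 and 137 TPM in D2 siKctd10 libraries, against 83.0, 88.8 and 81.7 TPM in D2 siControl libraries. At D0 it stood at 204, 177 and 150 TPM in siKctd10 libraries, against 76.3, 73.2 and 72.3 TPM in siControl libraries. The groups did not overlap at either day, and the lowest siKctd10 library at D2 was still well above the highest siControl library. The mean was 1.78-fold higher at D2 (log2 difference 0.82, 95% interval 0.58 to 1.07) and 2.39-fold higher at D0 (1.24, 0.99 to 1.48).

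Tagln encodes transgelin (SM22α), an actin-bundling protein of smooth muscle, at chr9:45929628-45936058 on the minus strand. It stood at 182, 165 and 195 TPM in D2 siKctd10 libraries, against 118, 118 and 101 TPM in D2 siControl libraries. At D0 it stood at 138, 155 and 154 TPM in siKctd10 libraries, against 53.0, 63.7 and 51.9 TPM in siControl libraries. Again no library crossed between the groups of a day, and here the D0 siKctd10 libraries were above all 3 D2 siControl libraries. The mean was 1.61-fold higher at D2 (log2 difference 0.68, 95% interval 0.44 to 0.92) and 2.65-fold higher at D0 (1.40, 1.15 to 1.64). Its last exon shares 103 bases with a transcript of Pcsk7 on the opposite strand, which ranged from 0.3 to 60.3 TPM between libraries. Whether the counting used strand is not given in the sources used here, and exons 2 and 3, which lie outside that stretch, are described below. A further Pcsk7 transcript of several exons, at 3.8 to 12.8 TPM, also reaches into the Tagln locus, and the bases it shares were not counted.

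Cnn2 encodes calponin 2, the calponin found in many nonmuscle cells as well as in smooth muscle, at chr10:79988600-79995400. It stood at 631, 651 and 618 TPM in D2 siKctd10 libraries, against 501, 493 and 496 TPM in D2 siControl libraries. At D0 it stood at 709, 747 and 648 TPM in siKctd10 libraries, against 429, 472 and 426 TPM in siControl libraries. This was the tightest of the 8 genes within groups, with the highest library at most 1.15-fold above the lowest, and the groups did not overlap. The mean was 1.27-fold higher at D2 (log2 difference 0.35, 95% interval 0.20 to 0.50) and 1.58-fold higher at D0 (0.66, 0.51 to 0.81).

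**Figure D1:**
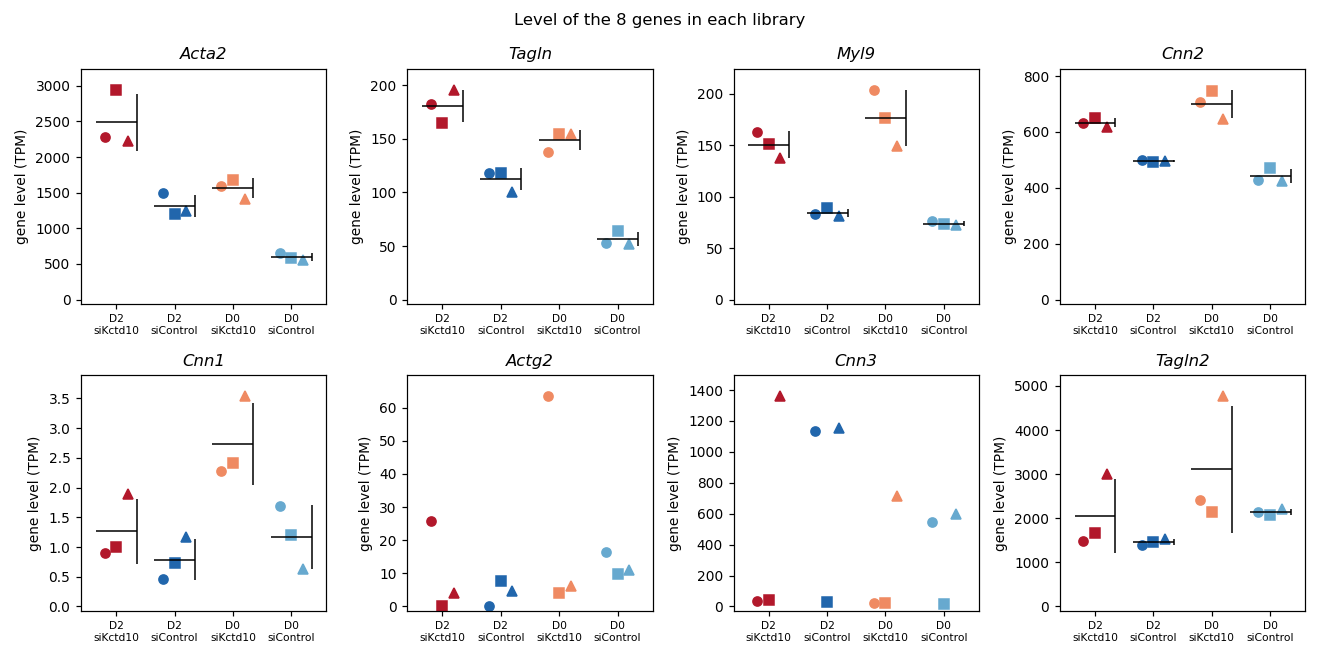
Level in TPM (vertical axis, linear, from 0) of each of the 8 genes in each library, by group along the horizontal axis. Circles, squares and triangles are replicates 1, 2 and 3 of a group, horizontal lines are group means and vertical lines 1 SD on either side (n = 3), and neither is drawn for Actg2 and Cnn3. The siKctd10 libraries of Acta2, Tagln, Myl9 and Cnn2 stand above the siControl libraries of the same day, while Cnn3 falls into a low set of 16.1 to 40.8 TPM and a high set of 545 to 1358 TPM within every group.

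Acta2, Tagln, Myl9 and Cnn2 were the 4 genes of the 8 called higher (limma, adjusted p under 0.05) under siKctd10 at D0, and the same 4 were called at D2. Over all tested genes 2.45% were called at D0 (1.48% higher) and 4.75% at D2 (2.83% higher). The genes were chosen knowing this contrast, so nothing is read from these counts. The median log2 difference of the 8 was 0.45 at D2 and 0.73 at D0, against 0.079 and 0.045 over all tested genes. The Cnn2 call at D2 was lost with voom on estimated read pairs and without 1 library in 5 of 12 cases, and its call at D0 was lost in a fit of the D0 groups alone. The balance of calls over all genes depends on scaling: 59.6% of the D2 calls and 60.6% of the D0 calls were higher, against 39.4% and 47.6% after median-ratio scaling.

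Cnn1 encodes calponin 1, the classic calponin of differentiated smooth muscle, at chr9:22099253-22109221, and it was barely detected. It stood at 0.895, 1.00 and 1.89 TPM in D2 siKctd10 libraries, against 0.466, 0.737 and 1.16 TPM in D2 siControl libraries. At D0 it stood at 2.27, 2.41 and 3.53 TPM in siKctd10 libraries, against 1.69, 1.20 and 0.625 TPM in siControl libraries. The groups overlapped at D2 and not at D0, where the mean was 2.34-fold higher under siKctd10. On the log2(TPM + 1) scale, which understates changes at such levels, the difference was 0.33 at D2 (95% interval -0.22 to 0.88) and 0.80 at D0 (0.25 to 1.35). The 7-exon transcript was listed at 0 in all 12 libraries, and only the last exon of the 6-exon transcript had coverage, at chr9:22107751-22108334, which runs across an intron of the 7-exon transcript. The first 5 exons of both transcripts were listed at 0 throughout, so the Cnn1 values rest on that 1 exon.

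Actg2 encodes smooth muscle γ-actin, the actin of visceral smooth muscle, at chr6:83512909-83536251 on the minus strand. It was listed at 25.9, 0 and 4.19 TPM in D2 siKctd10 libraries, against 0, 7.64 and 4.82 TPM in D2 siControl libraries. At D0 it was listed at 63.4, 4.08 and 6.34 TPM in siKctd10 libraries, against 16.4, 9.94 and 10.9 TPM in siControl libraries. Replicate 1 was the highest siKctd10 library at both days, and the groups overlapped at both. Its first 5 exons were listed at 0 in all 12 libraries. Coverage came from the last 4 of 9 exons, in some libraries and not others, so no difference was detectable in the Actg2 gene level. Exon 9 alone parted the D0 groups, with coverage scaled to TPM of 24.4 to 37.9 under siKctd10 and 7.65 to 19.6 under siControl. Its D2 groups overlapped, and how often exons part in this way over all genes was not counted. Its log2 difference under siKctd10 was 0.49 at D2 (95% interval -2.46 to 3.44) and 0.03 at D0 (-2.92 to 2.97), and leaving out 1 library moved the D0 value between -1.11 and 0.73.

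Cnn3 encodes calponin 3, the acidic calponin, which is found in nonmuscle cells and in myoblasts, at chr3:121426541-121458205. It was listed at 36.4, 40.8 and 1358 TPM in D2 siKctd10 libraries, against 1134, 30.9 and 1156 TPM in D2 siControl libraries. At D0 it was listed at 20.8, 24.7 and 717 TPM in siKctd10 libraries, against 545, 16.1 and 598 TPM in siControl libraries. The same replicate numbers were low at both days, 1 and 2 with siKctd10 and 2 with siControl, and the highest library of each group was 34.4 to 37.4 times the lowest. Within the 6 high libraries the D2 values lay above the D0 values with either siRNA, and likewise within the 6 low libraries. The 95% interval of the siKctd10 difference was -6.32 to 3.45 at D2 and -6.15 to 3.62 at D0 on the log2 scale, so the libraries cannot say whether Cnn3 changed. The split between its 7-exon and 6-exon transcripts differed between libraries. In D2 siControl libraries the 7-exon transcript held 1075, 0 and 0 TPM and the 6-exon transcript 58.7, 30.9 and 1156 TPM. Both transcripts held level together in replicate 1 of D0 siControl (253 and 292 TPM) and replicate 3 of D0 siKctd10 (241 and 476 TPM). The last exon, of 1124 bases and common to both, had the highest coverage in the 6 high libraries and was at or near 0 in the 6 low ones, at most 0.81 on the TPM scale in either transcript, where the exons before it carried the level. Of the 50-base windows of Cnn3, 16.4% occur word for word in transcripts of other genes, Gm17936 and Gm4815, against 1.1% in Tagln2, 0.5% in Acta2 and none in the other 5 genes.

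Tagln2 encodes transgelin 2, the broadly expressed transgelin, at chr1:172500246-172507380. As a gene it stood at 1474, 1656 and 3010 TPM in D2 siKctd10 libraries, against 1393, 1462 and 1521 TPM in D2 siControl libraries. At D0 it stood at 2415, 2154 and 4762 TPM in siKctd10 libraries, against 2145, 2070 and 2220 TPM in siControl libraries. Replicate 3 stood apart from the other 2 siKctd10 libraries at both days, and it did so through 1 transcript. A 1-exon transcript of 470 bases at the 3′ end, chr1:172506911-172507380, was estimated at 2319 TPM in replicate 3 of D2 siKctd10 and 3619 TPM in replicate 3 of D0 siKctd10, and at 1.78 to 3.77 TPM in the other 10 libraries. The 5-exon transcript was lowest in those same 2 libraries, at 690 TPM in D2 siKctd10, where the other 2 stood at 1471 and 1654 TPM, and at 1143 TPM in D0 siKctd10, where the other 2 stood at 2413 and 2152 TPM. The direction of the gene's siKctd10 difference turned on this transcript. It was 0.42 at D2 and 0.44 at D0 with both transcripts summed, and -0.29 and -0.24 with the 5-exon transcript alone. Replicate 3 enters both estimates. When single libraries were left out in turn, the summed difference ranged from 0.10 to 0.61 at D2 and from 0.09 to 0.66 at D0. The 95% intervals with both summed were -0.28 to 1.12 and -0.26 to 1.14.

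**Figure D2:**
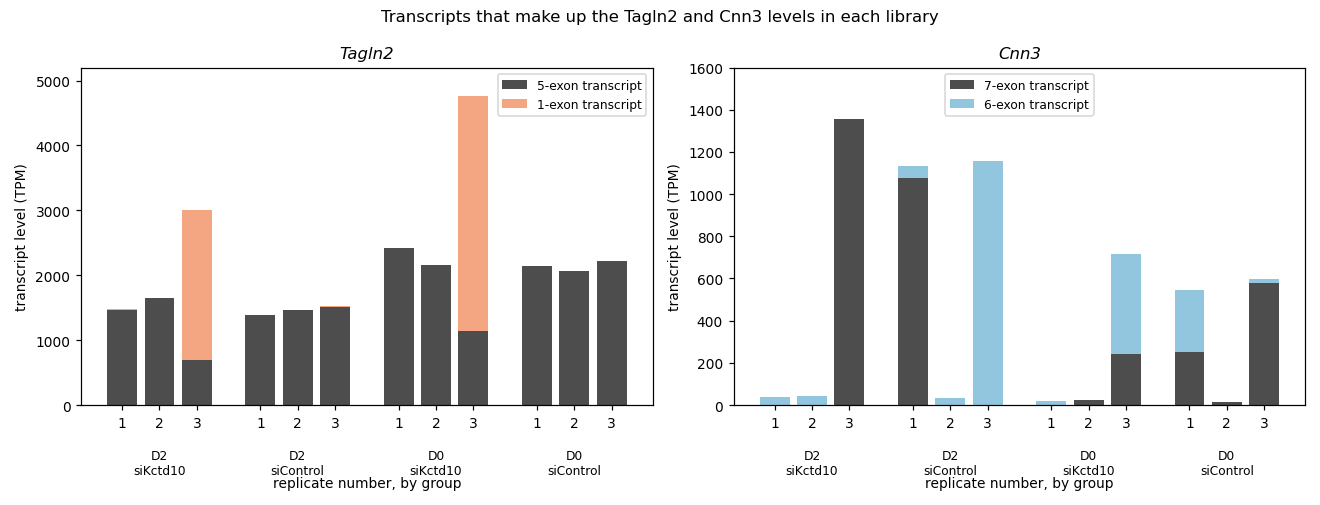
Level in TPM (vertical axis, linear, from 0) of the 2 transcripts of Tagln2 (left) and of Cnn3 (right), stacked, in each of the 12 libraries, with the replicate number and group along the horizontal axis. The 1-exon Tagln2 transcript is visible only in replicate 3 of both siKctd10 groups, at 2319 and 3619 TPM. The split of Cnn3 between its 7-exon and 6-exon transcripts differs among the 6 libraries where the gene is high.

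The TPM levels, which compare genes per transcript length, spanned a wide range. In D0 siControl libraries Tagln2 was highest, followed by Acta2, Cnn2, Myl9 at 73.9 ± 2.13 TPM, Tagln at 56.2 ± 6.54 TPM, Actg2 and Cnn1, and no neighbours among these overlapped. In D0 siKctd10 libraries Tagln (138 to 155 TPM) and Myl9 (150 to 204 TPM) overlapped. In D2 siControl libraries Tagln2 (1393 to 1521 TPM) and Acta2 (1205 to 1489 TPM) overlapped, and Tagln, at 101 to 118 TPM, had passed Myl9, at 81.7 to 88.8 TPM. In D2 siKctd10 libraries Acta2 (2222 to 2947 TPM) again overlapped Tagln2 (1474 to 3010 TPM), and was above it in replicates 1 and 2. Cnn3 can be given no place in this order. The place of Acta2 rests mostly on its exons 6 and 7, whose mean coverage was 3222 and 4189 on the TPM scale in D0 siControl libraries. Its last exon, of 1475 bases, averaged 98.1 there.

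The comparison of D2 with D0 asks how the genes stand in differentiating cells relative to myoblasts, and it was not the contrast by which they were chosen. It draws on the same libraries as that contrast, so its values and p-values are not independent of the choice. Acta2 and Tagln rose with differentiation in siControl cells. Acta2 averaged 1313 ± 154 TPM in D2 siControl cells and 600 ± 52.3 TPM in D0 siControl cells (SD, n = 3 each), a 2.19-fold difference (log2 difference 1.13, SE 0.13, limma adjusted p = 8.9e-05). Tagln averaged 112 ± 10.0 TPM in D2 siControl cells and 56.2 ± 6.54 TPM in D0 siControl cells, a 2.00-fold difference (0.99, SE 0.11, limma adjusted p = 6.6e-05). These were 2 of the 8 genes, where 35.5% of all tested genes were called (21.4% higher), so the share is no higher than the background.

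Cnn2 and Myl9 stood slightly higher at D2 in siControl cells, with no overlap of libraries, but neither passed the test. Cnn2 averaged 497 ± 4.10 TPM at D2 and 442 ± 25.7 TPM at D0 (log2 difference 0.17, limma adjusted p = 0.078), and Myl9 84.5 ± 3.78 TPM at D2 and 73.9 ± 2.13 TPM at D0 (0.19, limma adjusted p = 0.22). Libraries without overlap made up 52.3% of all tested genes in this comparison. Tagln2 was lower at D2 in siControl cells without overlap, at 1459 ± 64.1 TPM, against 2145 ± 75.0 TPM at D0. Its log2 difference of -0.56 missed the threshold in the fit over all 12 libraries (limma adjusted p = 0.21), in which replicate 3 of the siKctd10 groups widens the spread of this gene. Without those 2 libraries the difference was -0.56 with adjusted p = 0.00045, and with voom on estimated read pairs it was -0.67 with adjusted p = 3.1e-05. Cnn1, at 0.789 ± 0.351 TPM at D2 and 1.17 ± 0.533 TPM at D0 (-0.27, limma adjusted p = 0.45), gave no detectable difference. Nor did Actg2 (-1.83, 95% interval -4.78 to 1.12) or Cnn3 (0.97, -3.91 to 5.85).

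In siKctd10 cells 1 gene rose and 1 fell between D2 and D0, with 36.4% of all tested genes called, 23.1% higher and 13.3% lower. Acta2 averaged 2485 ± 401 TPM in D2 siKctd10 cells and 1562 ± 139 TPM in D0 siKctd10 cells, a 1.59-fold difference (log2 difference 0.66, SE 0.13, limma adjusted p = 0.0027). Cnn1 averaged 1.26 ± 0.547 TPM in D2 siKctd10 cells and 2.74 ± 0.692 TPM in D0 siKctd10 cells (-0.74, limma adjusted p = 0.041). The Cnn1 call rests on low values and was lost with a pseudocount of 0.1 TPM (adjusted p = 0.075). Leaving out 1 library lost it in 7 of 12 cases. Tagln averaged 181 ± 15.3 TPM at D2 and 149 ± 9.51 TPM at D0 (0.28, 95% interval 0.03 to 0.52, limma adjusted p = 0.073), with every D2 library above every D0 library, and 48.4% of all tested genes had no overlap in one direction or the other. Myl9, at 151 ± 13.0 TPM at D2 and 177 ± 27.2 TPM at D0 (-0.22, limma adjusted p = 0.15), and Cnn2, at 633 ± 16.8 TPM at D2 and 701 ± 50.3 TPM at D0 (-0.14, limma adjusted p = 0.12), had overlapping groups and lower means at D2. Tagln2 averaged 2047 ± 839 TPM at D2 and 3110 ± 1437 TPM at D0, again with replicate 3 apart in both groups and overlapping groups (-0.58, limma adjusted p = 0.18). Its difference passed the test without those 2 libraries (-0.55, adjusted p = 0.0019) and with voom (-0.69, adjusted p = 2.4e-05). Actg2 (-1.37, 95% interval -4.32 to 1.58) and Cnn3 (0.80, -4.08 to 5.68) gave no detectable difference. After median-ratio scaling the differences of Myl9 and Cnn2 passed the test, at -0.35 for Myl9 (adjusted p = 0.025) and -0.28 for Cnn2 (adjusted p = 0.004). The median log2 difference of all tested genes in this comparison was 0.118, and 0.004 after that scaling.

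The test of the difference between the siKctd10 effects at D2 and at D0 gave no call among the 8 genes (limma), with 0.742% of all tested genes called. The unadjusted p was under 0.05 for 4 of them, and voom called none. Tagln had the smallest p, with a log2 difference of differences of -0.71 (95% interval -1.06 to -0.37, limma adjusted p = 0.083). It was -0.69 (limma adjusted p = 0.028) when Tagln was taken from the 3 exons with coverage in all 12 libraries. That alternative was added after the data had been seen. Acta2 (-0.47, -0.87 to -0.06), Myl9 (-0.41, -0.76 to -0.06) and Cnn2 (-0.31, -0.52 to -0.10) had the same sign, with limma adjusted p of 0.40, 0.38 and 0.23. The D2 and D0 differences that enter this test were known when the genes were chosen, so nothing is read from these p-values.

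**Figure D3:**
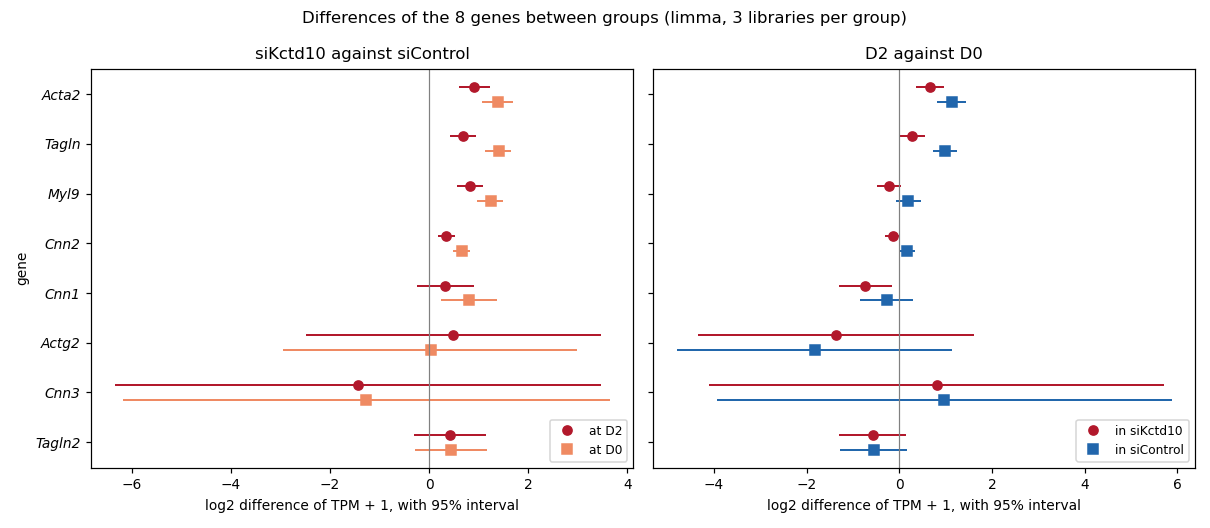
Log2 differences of TPM + 1 (horizontal axis) for the 8 genes (vertical axis), with 95% intervals from limma, siKctd10 against siControl at each day on the left and D2 against D0 with each siRNA on the right. Intervals for Actg2 and Cnn3 span more than 5 log2 units, while those of Acta2, Tagln, Myl9 and Cnn2 lie above 0 on the left at both days and are further right at D0.

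Gene TPM is built from coverage of the exons, so exon values are no independent measure of the siKctd10 differences, and they are given to show where in each gene its level comes from. The deposited files list many exons at 0. Of 10484 inner exons of 1527 genes with 1 transcript, at least 3 exons and at least 10 TPM, 81.8% were listed at 0 in some library and 47.1% in some but not all. For the 4 genes that were higher under siKctd10, the exons above 0 in all 12 libraries were therefore set side by side, each scaled to TPM within its library. Acta2 had 3 such exons of 9, exons 6, 7 and 9, whose mean coverage under siKctd10 was 1.69, 2.02 and 1.75 times that under siControl at D2, and 2.44, 2.56 and 2.29 times at D0. Their absolute coverage was very uneven, with 13191, 16194 and 312 on the TPM scale in D2 siKctd10 libraries, against 7820, 8013 and 178 in D2 siControl libraries. The ratios between groups were close across the 3 exons even so, and the libraries overlapped only in exon 6 at D2. The other 6 exons were each listed at 0 in at least 1 library. Exon 5 was listed at 0 in all 3 D2 siKctd10 libraries, against 977, 1102 and 769 in D2 siControl libraries, and at 1115, 1087 and 899 in D0 siKctd10 libraries, against 0 in all 3 D0 siControl libraries.

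Tagln had 3 such exons of 5, and exons 2, 3 and 5 gave ratios of 1.27, 1.58 and 1.70 at D2 and 2.35, 2.57 and 2.46 at D0. All of these had siKctd10 libraries above siControl libraries without overlap. These include exons 2 and 3, which share no bases with the Pcsk7 transcript whose shared bases were counted above. Myl9 had 2 such exons of 4, with 1.78 and 1.78 at D2 and 1.83 and 2.40 at D0. Cnn2 had coverage in all 7 exons, with ratios of 0.95 to 1.48 at D2 and 1.49 to 2.18 at D0. Its first 2 exons, at 0.95 and 1.05, did not share the rise of the other 5 at D2, where the groups of both overlapped.

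**Figure D4:**
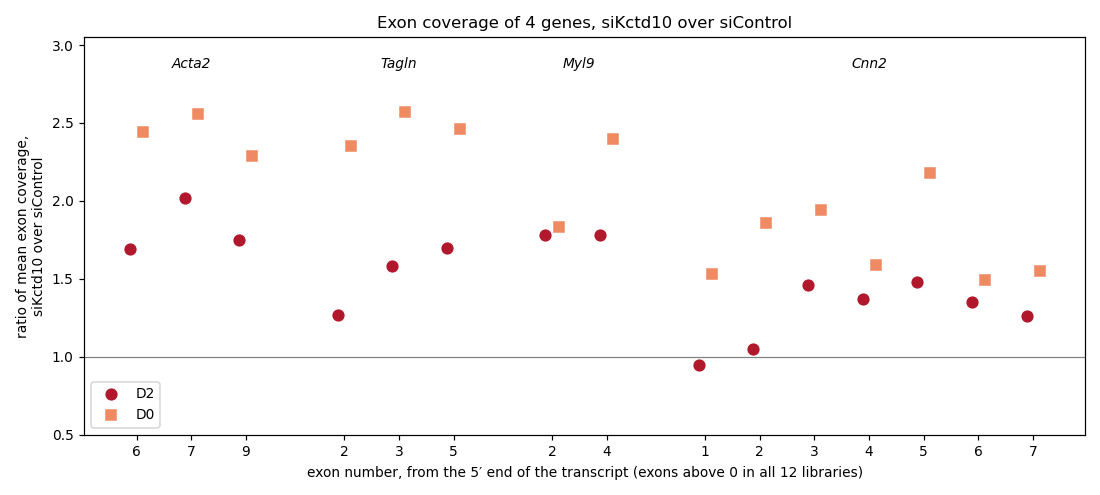
Ratio of mean exon coverage, siKctd10 over siControl (vertical axis, linear), for each exon above 0 in all 12 libraries of Acta2, Tagln, Myl9 and Cnn2 (horizontal axis, exon number from the 5′ end). Circles are D2 and squares are D0, and the line marks a ratio of 1. The D0 ratio exceeds the D2 ratio in every exon shown, and only exon 1 of Cnn2 at D2, at 0.95, lies under 1.

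The nearest relatives of these genes that are not smooth muscle isoforms were set beside them. This list and those below were chosen with earlier results of these data known, so their p-values may not be free of that choice. Of 8 tested relatives (of 9, Tagln3 being at most 0.699 TPM in any library), limma called 1 lower and none higher under siKctd10 at D2, where 4.75% of all tested genes were called, and 1 higher and none lower at D0, where 2.45% were. Voom called 2 at D2 and none at D0. Actc1, the cardiac actin that C2C12 cells also make, fell under siKctd10 at D2, with 675, 722 and 684 TPM in siKctd10 libraries, against 1196, 1213 and 1113 TPM in siControl libraries (log2 difference -0.76, limma adjusted p = 0.019). Acta1, skeletal α-actin, rose under siKctd10 at D0, with 196, 175 and 135 TPM in siKctd10 libraries, against 102, 72.9 and 87.2 TPM in siControl libraries (0.94, limma adjusted p = 0.017), a call that was lost with voom. At D2 its libraries lay on the other side, at 909 ± 52.6 TPM with siKctd10 and 1376 ± 146 TPM with siControl (-0.59, limma adjusted p = 0.065). Its siKctd10 effect differed between the days (-1.53, limma adjusted p = 0.016), which was the only such call among the relatives. The cytoplasmic actins Actb and Actg1 passed no siKctd10 test at either day, with log2 differences of -0.16 and 0.00 at D2 and 0.12 and 0.17 at D0. The nonmuscle light chains did not pass it either: Myl12a had -0.57 at D2 and -0.32 at D0, and Myl12b 0.09 and 0.52. Among the actins, Acta1 and Actc1 rose most with differentiation, 15.7-fold and 65-fold in siControl cells, where Acta2 rose 2.19-fold and Actb fell (-0.27, limma adjusted p = 0.022).

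Of 20 tested genes of the smooth muscle apparatus (of 25) other than the 8, limma called 2 higher and 2 lower under siKctd10 at D2, and 1 higher and none lower at D0. Over all tested genes 4.75% were called at D2 and 2.45% at D0. The median log2 difference of the 20 was 0.16 at D2 and 0.38 at D0, against 0.079 and 0.045 over all tested genes, and no test was made of the list as a whole. Voom called 4 of the 20 at D2 and none at D0. Tpm1, a tropomyosin that lies along actin filaments, was the gene called at both days, with 968 ± 120 TPM in D2 siKctd10 cells and 591 ± 68.5 TPM in D2 siControl cells (0.71, limma adjusted p = 0.010), and 823 ± 65.3 TPM in D0 siKctd10 cells and 547 ± 52.6 TPM in D0 siControl cells (0.59, limma adjusted p = 0.035). Its D0 call was lost with voom. Aoc3, an amine oxidase of smooth muscle and fat, was higher at D2 at a low level, with 5.80 ± 0.212 TPM in siKctd10 cells and 2.23 ± 0.491 TPM in siControl cells (1.08, limma adjusted p = 0.0057). Ldb3 and Pdlim3, Z-disc proteins that skeletal fibres also make, were lower at D2 (-0.66 and -0.68, limma adjusted p of 0.0095 and 0.0084). The sum of the skeletal markers given above was also lower in all D2 siKctd10 libraries than in any D2 siControl library, and its part in these results was not tested. Des, the muscle intermediate filament desmin, is on both lists and had -0.28 at D2 (limma adjusted p = 0.42). Between D2 and D0, 9 of the 20 rose in siKctd10 cells and none fell, where 23.1% of all tested genes rose and 13.3% fell. In siControl cells 10 rose and none fell, where 35.5% of all tested genes were called and 21.4% rose. Mylk, the myosin light chain kinase that phosphorylates the chain Myl9 encodes, was among those that rose with either siRNA (1.38 in siKctd10 cells and 1.58 in siControl cells, limma adjusted p of 0.00078 and 0.00031).

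Of 14 tested genes for SRF, its cofactors and related factors (of 15, Myocd being at most 0.311 TPM in any library), limma called 0 under siKctd10 at D2 and 0 at D0, with 3 and 5 at an unadjusted p under 0.05, and voom called none at either day. With 4.75% of all tested genes called at D2 and 2.45% at D0, fewer than 1 call would come from 14 genes at the background share, so nothing is read from the count. Srf averaged 45.6 ± 4.71 TPM in D2 siKctd10 cells and 47.3 ± 3.02 TPM in D2 siControl cells, and 57.1 ± 4.18 TPM in D0 siKctd10 cells and 47.7 ± 3.45 TPM in D0 siControl cells. Its log2 difference was -0.06 (95% interval -0.29 to 0.18) at D2 and 0.25 (0.02 to 0.49, limma adjusted p = 0.28) at D0. Mrtfa, which encodes an MRTF cofactor, had 0.25 (-0.18 to 0.67) at D2 and -0.08 (-0.51 to 0.34) at D0, and Mrtfb had -0.20 (-0.73 to 0.33) and 0.55 (0.01 to 1.08). Between D2 and D0, 7 of the 14 were called higher and 2 lower (Elk3 and Srf) in siKctd10 cells, where 36.4% of all tested genes were called, and 7 higher and none lower in siControl cells, where 35.5% were. The 5 tested genes of nonmuscle myosin II (of 6) had no siKctd10 call by limma or voom at either day, with 1 at D2 and 3 at D0 at an unadjusted p under 0.05, and so few genes would hold fewer than 1 call at the background share too.

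Across the 12 libraries the genes most like each of the 8 in log2 level were read off, by Pearson's r over 9902 or 9903 genes of at least 5 TPM on average. The libraries form 4 groups, so these values carry no test. They can reflect group patterns or differences between libraries within a group. Myl9 and Cnn2 headed each other's lists (r = 0.970), and Syt13 was among the nearest 3 of both. Acta2 was most like Col4a2, a basement membrane collagen chain (0.977), Qsox1 (0.972) and Hs1bp3 (0.972), and Tagln most like Irgm1 (0.955), Setd7 (0.952) and Aif1l (0.949). For Tagln2 the nearest were Pspc1 (0.993), Nudc (0.984) and Ints13 (0.981), and replicate 3 of both siKctd10 groups stands apart in the Tagln2 profile they were matched to. Cnn1 was nearest Bag2 (0.903), Cnn3 nearest Bloc1s1 (0.843) and Actg2 nearest Ecsit (0.856). The Cnn3 and Actg2 profiles matched here vary widely within groups, as described above.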

How the data were processed

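Poly(A) RNA from C2C12 cells was sequenced in 12 libraries, 3 in each of 4 groups taken from the labels. The authors aligned reads to mm10 with HISAT and estimated transcript abundance with StringTie, per the submitters' processing notes, which also name SAMtools and DESeq2. Those notes give StringTie 1.1.3 and the file headers give 1.3.3b, and which made the values is not settled here. Each deposited file lists coverage, FPKM and TPM for 63759 known transcripts as text beside other annotation, a mixed column with no single unit, and TPM summed to 1000000 per library. No deposited read counts were used here.

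Transcripts were matched to GENCODE M21 genes on the same build by identical introns (42608) or by at least 50% exon overlap (13473), and 7678 were unmatched, so that 88.0% were matched. The unmatched ones took 3.82 to 4.63% of each library's TPM. TPM was summed per gene, and genes with at least 1 TPM in at least 3 libraries were kept. A linear model of log2(TPM + 1) was fitted by limma 3.58.1 in R 4.3.3 (4 group means, 8 residual degrees of freedom, mean-variance trend, robust), two-sided, with Benjamini-Hochberg adjustment over all 13076 genes and a threshold of 0.05. Fold changes on this scale understate those of low genes. The fit was tested on simulated data. Read pairs were estimated from coverage with an inferred 202 bases per pair. Replicates differed by far more than sampling noise, with a mean chi-square of 56.9 to 113 per gene between libraries of a group, so none was counted as a repeat of another. The value rests on estimated read pairs and cannot tell separate cultures from technical copies of 1 culture.

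The 8 genes and all gene lists were chosen with earlier results of these data known. All 8 genes are named, and from each other list the called genes or those needed for a count, at most 6 per comparison. The results of 1 of these lists are not reported here. The alternatives were other pseudocounts, filters, scalings, matchings and fits, voom, exons above 0 in all libraries, and leaving out libraries. The exon, long transcript and paired removal alternatives were added after the data had been seen.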

Additional observations from a re-analysis of the deposited data

Results flagged for a closer look

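Among the genes set beside the 8, the siKctd10 effect differed between the days for Acta1 and Ldb3 in a test of that difference (limma, adjusted over all tested genes). The lists that hold them were chosen with earlier results of these data known. For Acta1, skeletal α-actin, the log2 difference of differences, D2 minus D0, was -1.53 (adjusted p = 0.016), and for Ldb3, a Z-disc protein, it was -0.99 (adjusted p = 0.023).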

How the results depend on the processing

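Acta2 kept its rise between D2 and D0 with both siRNAs in every alternative run. The siKctd10 differences at each day chose the genes, so nothing is read from how they held. Of the 510 member values outside the removal of single libraries, 482 stayed the same in direction and call, 11 turned round, 10 gained a call and 7 lost one. Of the 480 without 1 library, 443 stayed the same, 20 turned round, 5 gained a call and 12 lost one. Both totals pool all 5 comparisons, including the siKctd10 differences and the difference between days, so nothing is read from them. Members called between D2 and D0 in siKctd10 cells (2) were 1 with a pseudocount of 0.1 TPM, no filter, a mean of at least 5 TPM, a fit of only the groups compared or the replicate block, and 4 with median-ratio scaling or voom, and 1 to 3 without 1 library. Members called in siControl cells (2) were 4 without both siKctd10 libraries numbered 3, and 2 to 3 without 1 library. Members called for the difference between days (0) were 1 with exons above 0 in all libraries. Genes called at D0 (320) were 72 in the fit of only those groups and 118 to 306 without 1 library, and at D2 (621) they were 252 and 315 to 682. Genes called for the difference between days (97) were 62 with a pseudocount of 0.1 TPM, 167 with 5 TPM, 42 with the replicate block, 63 without both siKctd10 libraries numbered 3 and 52 to 82 without 1 library.

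Actg2 under siKctd10 at D0 (0.03) turned to -0.03 with a pseudocount of 0.1 TPM and with median-ratio scaling, -0.01 with quantile normalization and -0.17 with voom. Tagln2 under siKctd10 (0.44 at D0 and 0.42 at D2) turned to -0.24 and -0.29 with strict matching and with its long transcript alone, and to -0.33 and -0.34 with exons above 0 in all libraries. Its difference between days (-0.03) was 0.01 without both siKctd10 libraries numbered 3. Without 1 library, Actg2 ranged from -1.11 to 0.73 at D0 and -0.70 to 1.68 at D2, and Cnn3 from -0.90 to 2.44 between D2 and D0 in siKctd10 cells and -0.72 to 2.69 in siControl cells. The difference between days ranged from -0.34 to 0.33 for Tagln2, -1.89 to 1.52 for Cnn3 and -0.72 to 1.65 for Actg2. Cnn2 at D2 was called with 0.35, and voom gave 0.27 (adjusted p = 0.085). The cause of these changes was not tested. Same-numbered libraries of different groups deviated together with r of -0.02 to 0.20 (18 pairs, median 0.01), and the main fit does not pair them. Between D0 and D2 siKctd10 libraries r was 0.09, 0.05 and 0.20 for the same number, and -0.14 to 0.07 for different numbers. Whether these libraries are paired across days is therefore not settled. Apart from the counts given, the replicate block changed only the Cnn1 call between D2 and D0 in siKctd10 cells (-0.74, limma adjusted p = 0.057).

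The levels of Cnn1 and Actg2 rest on 1 and at most 4 exons, and the part of depth in this was not tested. That of Acta2 comes mostly from its exons 6 and 7. The transcript estimates of Cnn3 and Tagln2 differ widely between libraries of a group.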
